A study of Mus musculus with 18 samples.

Results

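The chemokines are small secreted proteins that guide the migration of leukocytes, and their receptors are G protein-coupled receptors on the cells that are guided. The genes of both were examined in the kidney transcriptome of mice under chronic social defeat stress (CSDS), with or without fluoxetine (FLX). All genes of the deposited table whose symbol opens with Ccl, Cxcl, Cx3cl, Xcl, Ccr, Cxcr, Cx3cr or Xcr and goes on with a digit were taken, which gave 59 of 32675 genes. These were 38 ligand genes, 2 pseudogenes of Ccl19 and 19 receptor genes.

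Each library came from the right kidney of 1 wild-type male C57BL/6 mouse, labelled with an age of 6 weeks, which in the study's methods is the age at which the mice were obtained, before adaptation and defeat. In the control (Ctrl) group, 6 mice were handled every day without being defeated. In the PBS group, 6 mice were exposed for 10 min daily, on 14 days, to an aggressive mouse of the CD-1 strain and received phosphate-buffered saline. In the FLX group, 6 mice had the same defeats and received intraperitoneal fluoxetine, a selective serotonin reuptake inhibitor, at 10 mg per kg per day. No injection is mentioned for the Ctrl group, so that defeat and injection cannot be told apart in PBS versus Ctrl, and no group received fluoxetine without defeat. Bite wounds, which the study names as a limit of its model, were not recorded in the labels. The study deleted the data of a PBS mouse with high inflammatory genes and does not name it in its text. Here all 6 PBS mice were used, and values without PBS replicate 6, which stood apart in several of the genes below, are given beside the results.

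Total counts were between 48928823 and 52073640 in FLX replicates 3 to 6 and between 72149987 and 79061296 in the other 14 mice, and low genes rest on fewer fragments in those 4 FLX mice. Genes that mark kidney epithelium summed to 1818 to 2419 FPKM (fragments per kilobase of exon, scaled to the mapped fragments of the library) in the 18 mice, so that the labelled tissue was found in each. In bulk kidney, fewer cells of a type and less RNA per cell cannot be told apart.

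Chemokines fall into families by the spacing of the cysteines near their amino end, which gives the CC, CXC, CX3C and XC classes, and receptors are named after the class they bind. CXC ligands with a glutamate-leucine-arginine (ELR) motif, among them Cxcl1 and Cxcl2, draw neutrophils through CXCR2. CCR2 and CX3CR1 are receptors of monocytes and macrophages, CXCR3 is a receptor of activated T cells, and CXCL12 with its receptor CXCR4 holds blood progenitors in their niches. Tubule cells, endothelium and resident leukocytes of the kidney can all make chemokines.

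Ligands made up most of the chemokine RNA of the kidney. The summed level of the 59 genes was 89.6, 103 and 112 FPKM in the Ctrl group (lowest, median and highest of 6 mice), 101, 106 and 120 FPKM in the PBS group, and 97.6, 107 and 166 FPKM in the FLX group. Cxcl12, Cx3cl1, Cxcl16 and Cxcl14 together held between 45.7% and 64.6% of that sum in every mouse. Over all 18 mice, Cxcl12 averaged 18.8 FPKM, the adhesive ligand Cx3cl1 15.0, Cxcl16 13.9 and Cxcl14 11.6. A mean above 1 FPKM was found for 20 of the 59 genes, and Cxcr4, at 1.71 FPKM, was the only receptor gene among them. At the other end, 14 genes had a mean under 0.1 FPKM. Levels of Ccl21a (6.11 FPKM), Ccl21b (2.10) and Ccl19-ps3 (4.19), as of Ccl21d, Ccl19 and the Ccl27 genes, are uncertain, since these genes have near-identical copies on chromosome 4 among which reads can be split.

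**Figure D1:**
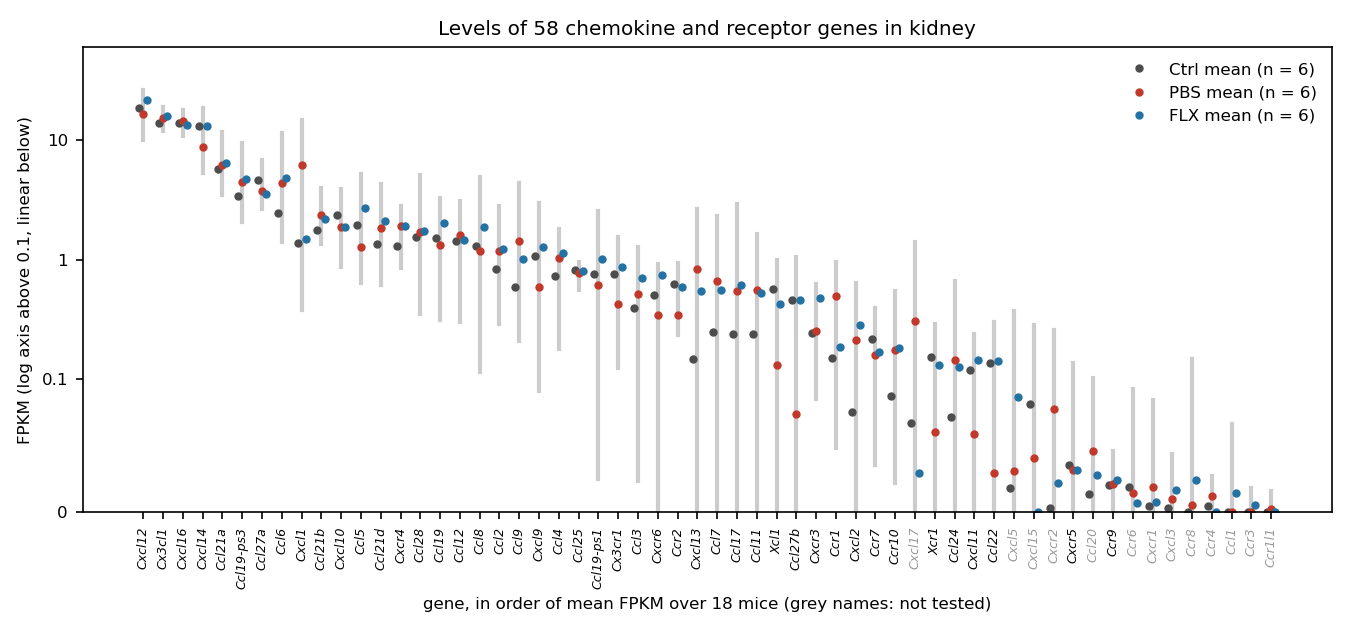
Level of 58 of the genes in FPKM on an axis that is linear below 0.1 and logarithmic above, in order of the mean over 18 mice, with group means as points and the range over the 18 mice as grey bars. Cxcl12, Cx3cl1, Cxcl16 and Cxcl14 stand at the top with means of 11.6 to 18.8 FPKM, and names in grey are genes with too few counts to be tested.

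The groups were compared with edgeR's quasi-likelihood test, a two-sided test fitted across 19946 genes, with p values adjusted by the Benjamini-Hochberg method. Of the 59 genes, 46 had enough counts to be tested, namely 32 ligand genes, the 2 pseudogenes and 12 receptor genes. The other 13 were Ccl1, Ccl20, Ccr1l1, Ccr3, Ccr4, Ccr6, Ccr8, Cxcl3, Cxcl5, Cxcl15, Cxcl17, Cxcr1 and Cxcr2. An exact two-sided permutation test of the difference in mean log2(FPKM + 0.1), over all arrangements of 6 against 6 mice, was used beside it for single genes. Its smallest possible p is 0.00216. For this test the deposited FPKM were not rescaled between libraries. Over all genes tested, the median difference in mean log2(FPKM + 0.1) was 0.0694 in FLX versus PBS and 0.0640 in FLX versus Ctrl. The medians from edgeR were -0.00996 and -0.00875. In PBS versus Ctrl they were -0.00294 and, from edgeR, -0.0013. The permutation p values of genes higher in the FLX group include this offset. Nothing in the labels ties mice of a group to separate cages or litters, and p values measure the spread between the mice that were sequenced.

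In PBS versus Ctrl, the receptor gene Ccr1 rose and was the only one of the 46 genes with an adjusted p under 0.05 (2.17%), against 4.28% of all genes tested. DESeq2 gave 5 of 46 (10.9%), against 8.17%. At the study's threshold, a log2 fold change beyond 1 in either direction with an unadjusted p under 0.05, the count was 7 of 46 (15.2%), against 3.77% of all genes. Cxcl1, Cxcl13, Ccl9 and Ccr1 were on the higher side, and Ccl22, Ccl27b and Xcl1 on the lower side. The study itself shows Ccr1, Cxcl1 and Ccl22 among its inflammation genes, chosen on these samples, and they are not independent evidence of a direction. With an unadjusted p under 0.05 alone, the share was 11 of 46 (23.9%), near the 19.8% of all genes. None of the 46 genes had PBS and Ctrl mice that did not overlap, against 2.75% of all genes. The list as a whole had no common direction, with 25 of 46 genes higher in the PBS group and a median log2 fold change of 0.08, beside -0.0013 over all genes.

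In FLX versus PBS, none of the 46 genes reached an adjusted p under 0.05 with edgeR, against 0.557% of all genes, while 10 of 46 (21.7%) had an unadjusted p under 0.05, against 12.2%. DESeq2, another count test, gave 1 gene, Ccr1 (2.17% of the 46, against 2.64% of all genes). The study's threshold was met by 5 of 46 genes (10.9%), against 2.28% of all genes, with Ccl22, Ccl27b and Cxcl9 higher and Ccr1 and Cxcl1 lower in the FLX group. Groups did not overlap for 0 of 46 genes, against 2.04% of all genes. In FLX versus Ctrl, no gene of the 46 had an adjusted p under 0.05 with edgeR or DESeq2, against 1.77% and 5.25% of all genes. The unadjusted p was under 0.05 for 4 of 46 genes (8.70%), against 17.7%, only Cxcl13 met the study's threshold (2.17% of the 46, against 2.09%), and groups did not overlap for 0 of 46, against 3.44%. The PBS mice enter both of the first comparisons, so that a high PBS value moves them in opposite directions. The median standard error of a log2 fold change was 0.485 for the 46 genes in PBS versus Ctrl, and small changes were not detectable for many of them. By the permutation test, 8, 10 and 4 of the 46 genes had an unadjusted p under 0.05 in PBS versus Ctrl, FLX versus PBS and FLX versus Ctrl, against 17.3%, 15.2% and 22.1% of all genes. The lowest p adjusted over all genes was 0.119, 0.149 and 0.0891 in that order.

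**Figure D2:**
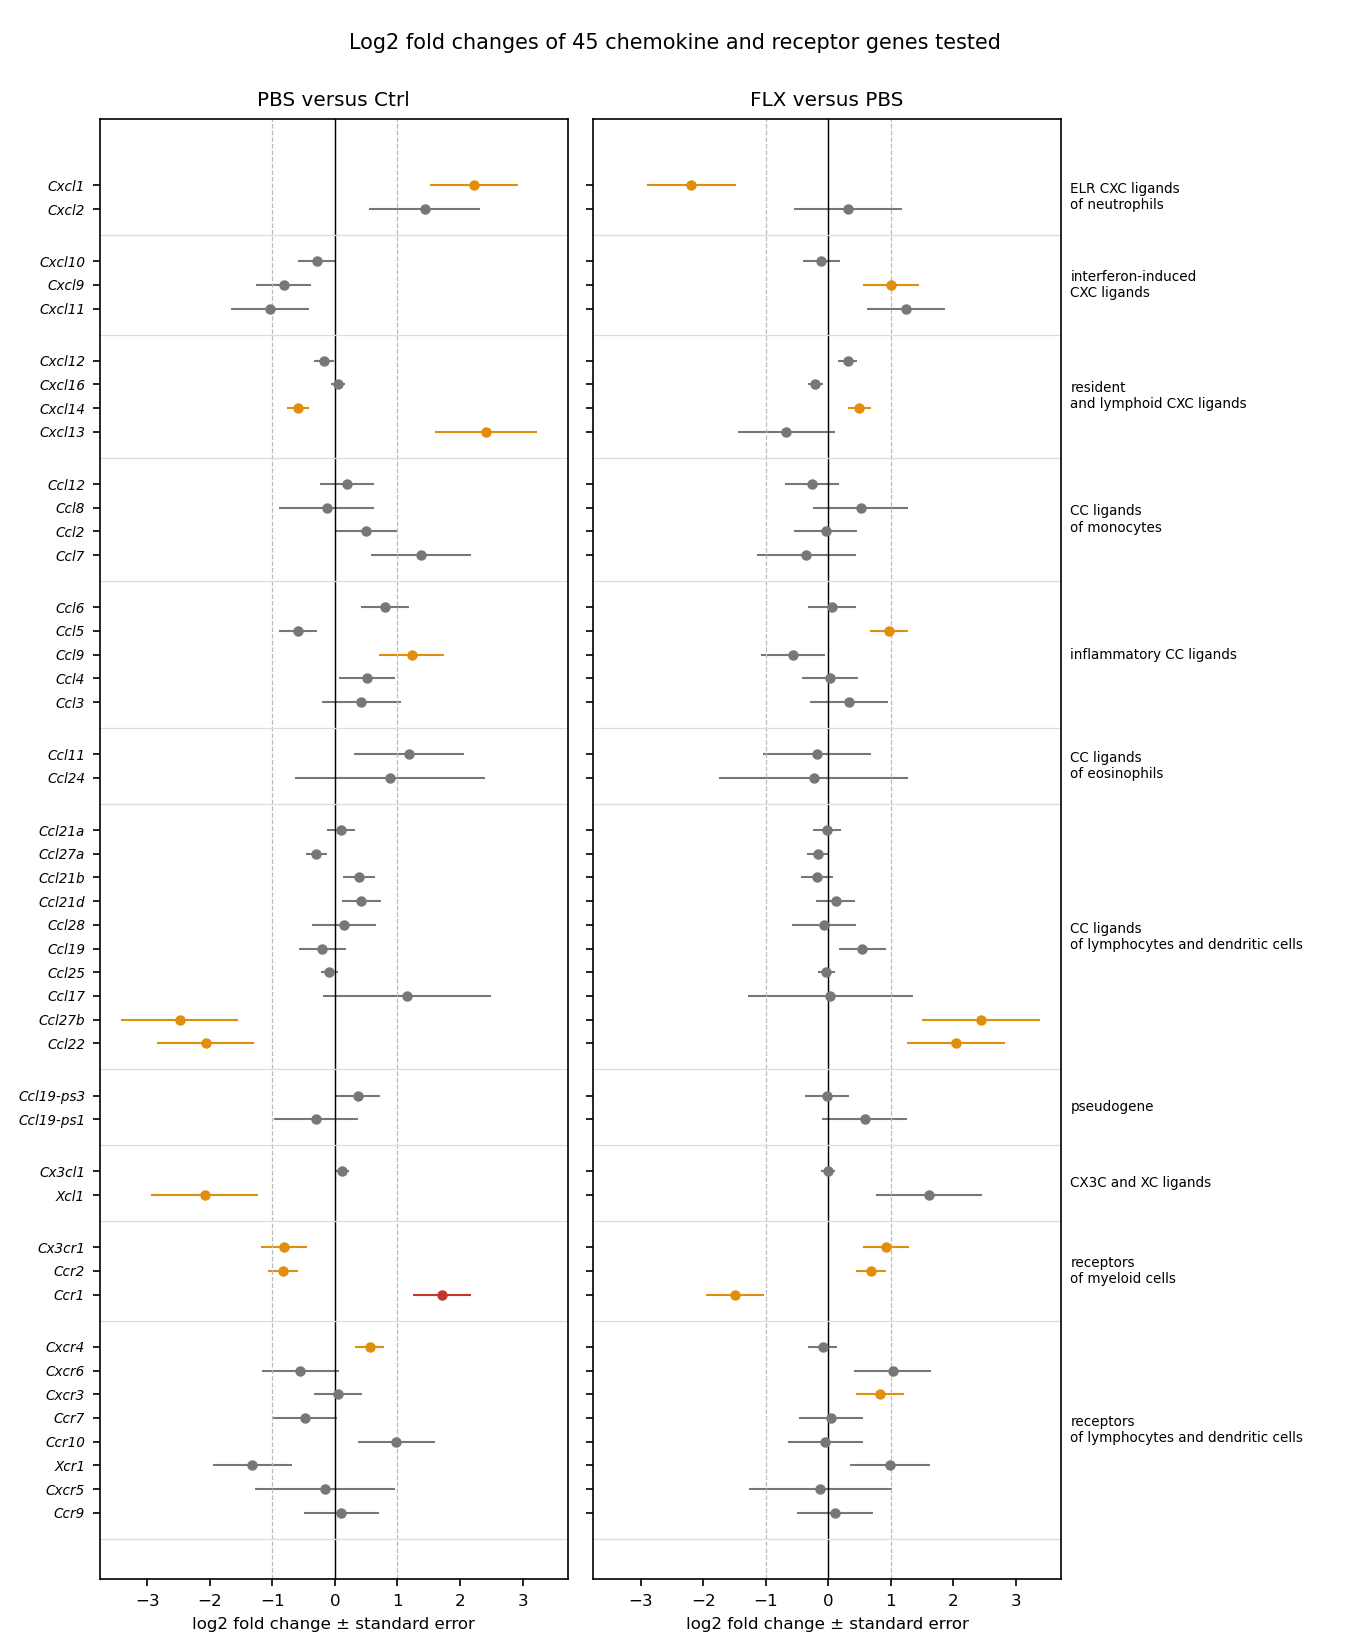
Log2 fold change with its standard error for 45 of the genes tested, grouped by role, in PBS versus Ctrl and FLX versus PBS (edgeR). Red marks an adjusted p under 0.05, orange an unadjusted p under 0.05 and grey neither, and dashed lines stand at a log2 fold change of 1 in each direction. Ccr1 at 1.71 is the only red point, and Cxcl1, Ccl22, Ccl27b, Ccr2, Cx3cr1 and Cxcl14 are orange in both panels, on opposite sides of 0.

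Among the ligands of neutrophils, Cxcl1 had a higher mean in the PBS group, carried by 3 of its 6 mice. Cxcl1 (ENSMUSG00000029380, chromosome 5, 90891241 to 90893115 on GRCm38) was at 0.419, 1.14 and 2.98 FPKM in the Ctrl group (lowest, median and highest), 0.425, 3.82 and 14.6 FPKM in the PBS group, and 0.382, 1.22 and 2.61 FPKM in the FLX group. PBS replicates 1, 4 and 6 were at 14.6, 13.1 and 5.79 FPKM, above every Ctrl and every FLX mouse, and PBS replicates 2, 3 and 5 lay inside the range of the Ctrl mice. On the log2 scale the difference was 2.22 (standard error, SE, 0.71) in PBS versus Ctrl and -2.19 (SE 0.71) in FLX versus PBS, with adjusted p of 0.0831 and 0.172 from edgeR. The exact permutation test gave p = 0.108 and p = 0.134. Neither comparison passed the threshold with edgeR, and the spread inside the PBS group (6.23 ± 6.19 FPKM, SD, n = 6) was nearly as large as its mean. With DESeq2, PBS versus Ctrl had an adjusted p of 0.0279, or 0.0456 without PBS replicate 6. With edgeR its log2 fold change ranged from 1.77 to 2.60 when each mouse was left out. It did not pass without PBS replicate 6, and came to 2.47 (adjusted p = 0.0312) without PBS replicate 3, the lowest PBS mouse.

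Cxcl2, the neighbour of Cxcl1 that also acts on CXCR2, had few counts (0 to 115 per mouse). Its levels were 0.0322, 0.0595 and 0.177 FPKM in the Ctrl group, 0.0427, 0.146 and 0.641 FPKM in the PBS group and 0, 0.254 and 0.607 FPKM in the FLX group. The groups overlapped, and the log2 fold change in PBS versus Ctrl was 1.43 (SE 0.89, adjusted p = 0.393), or 0.73 without PBS replicate 6. In FLX versus Ctrl it was 1.75 (adjusted p = 0.314), with FLX replicates 3 to 5 at 0.437 to 0.607 FPKM and the other 3 FLX mice at 0.0713 or less. FLX replicates 3 to 5 are 3 of the 4 FLX mice with low total counts. The other ELR ligands Cxcl3, Cxcl5 and Cxcl15 lie in the same cluster, between 90759360 and 90905938 on chromosome 5, and were listed at 0 in 12, 10 and 14 of the 18 mice.

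Cxcr2, the receptor of these ligands on neutrophils, was listed at 0 in 5 of 6 Ctrl mice and in 3 of 6 FLX mice and was found in every PBS mouse. It had 160 counts over all 18 mice, too few for the count test. The PBS mice had 0.0253, 0.0381 and 0.258 FPKM (lowest, median and highest), all above the 1 Ctrl mouse with a value, replicate 3 at 0.0195 FPKM. The exact permutation test gave p = 0.00216 in PBS versus Ctrl, the smallest it can give. Any gene whose groups do not overlap receives this p. Cxcr2 was named in part because its PBS and Ctrl mice do not overlap, so this p adds nothing to that separation. The share of genes without overlap was computed over the tested genes only, and Cxcr2 is not among them. In FLX versus PBS the exact permutation test gave p = 0.0996, where 4 of 6 FLX mice were below every PBS mouse. Cxcr2 was not among the genes over which p values were adjusted. Cxcr1, the other receptor of this class, was listed at 0 in 14 of the 18 mice.

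**Figure D3:**
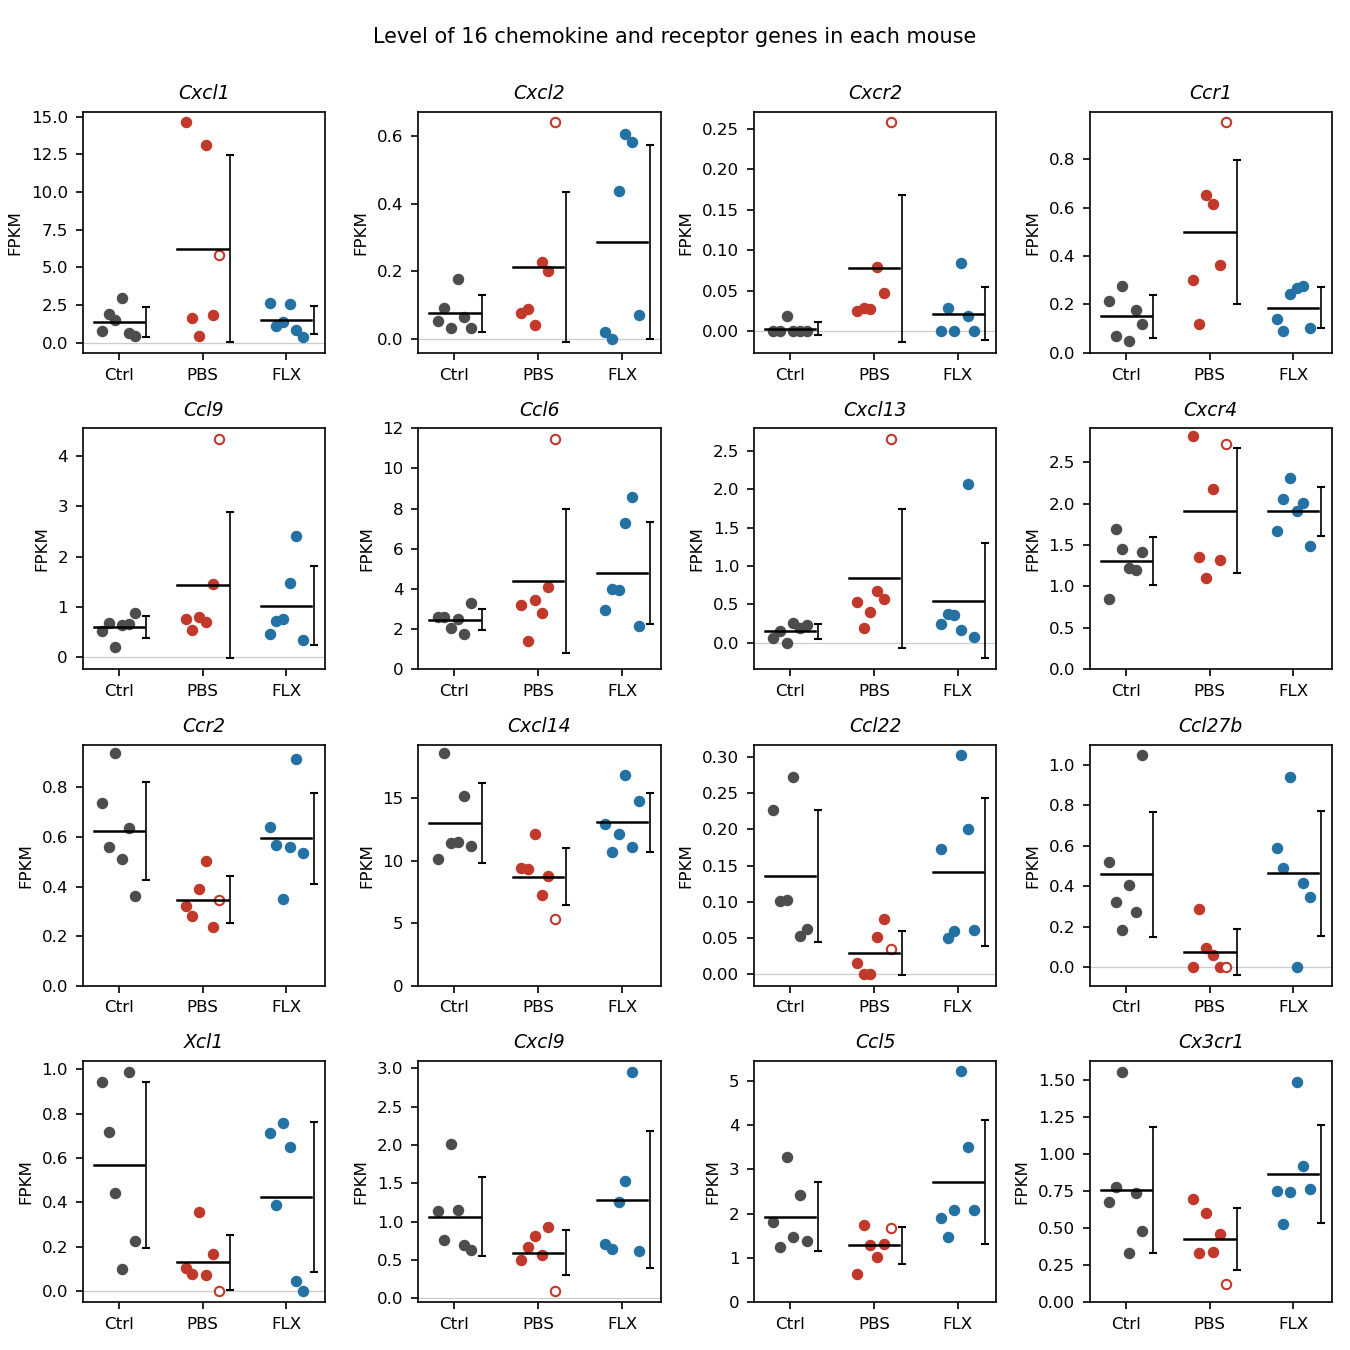
FPKM of 16 chemokine and receptor genes in each mouse, with a point per mouse, a bar at the mean and an error bar of 1 SD (n = 6 per group), and PBS replicate 6 as an open circle. PBS mice spread from 0.425 to 14.6 FPKM for Cxcl1, while 5 of 6 PBS mice lie above every Ctrl mouse for Ccr1 and 5 of 6 below every Ctrl mouse for Ccl22.

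Ccr1, a receptor of neutrophils, monocytes and other myeloid cells for CC ligands such as CCL3, CCL5, CCL6 and CCL9, rose in the PBS group. Ccr1 (ENSMUSG00000025804, chromosome 9, 123962124 to 123968692) was at 0.0484, 0.149 and 0.274 FPKM in the Ctrl group, 0.119, 0.488 and 0.951 FPKM in the PBS group and 0.0886, 0.192 and 0.277 FPKM in the FLX group. All but PBS replicate 2 lay above every Ctrl and every FLX mouse. The log2 fold change in PBS versus Ctrl was 1.71 (SE 0.47, adjusted p = 0.0436 from edgeR, permutation p = 0.0195). It was -1.50 (SE 0.47, adjusted p = 0.155, permutation p = 0.0303) in FLX versus PBS and 0.22 (adjusted p = 0.854) in FLX versus Ctrl, the last ranging from 0.04 to 0.44 when each mouse was left out. The highest value was that of PBS replicate 6, and without this mouse the log2 fold change came to 1.45 (adjusted p = 0.0938) in PBS versus Ctrl and -1.23 (adjusted p = 0.284) in FLX versus PBS. The adjusted p in PBS versus Ctrl also exceeded 0.05, at 0.0532 to 0.105, without any 1 of PBS replicates 1, 3 and 4, Ctrl replicates 1, 2, 4, 5 and 6 and FLX replicate 1. Over 31 settings of tool, scaling, filter and mice, this adjusted p was under 0.05 in 13. The lowest and highest over all of them were 0.00598 and 0.109.

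Summed markers of neutrophils were also higher in the PBS group than in the other groups. Cxcl1 did not follow them in every mouse, and PBS replicate 3, the lowest PBS mouse for Cxcl1, had 17.1 FPKM of these markers. The 14 neutrophil genes found in the table, with S100a8 and S100a9 among them, summed to 1.61, 2.05 and 3.76 FPKM in the Ctrl group, 7.44, 13.4 and 69.3 FPKM in the PBS group and 0.679, 2.12 and 6.16 FPKM in the FLX group. PBS replicate 6 was the highest, and the other PBS mice reached 26.7 FPKM. Every PBS mouse lay above every Ctrl and every FLX mouse. Of the 9 neutrophil genes tested, 9 were higher in PBS versus Ctrl, and S100a8, S100a9, Retnlg and Ngp had an adjusted p under 0.05 (3 of them without PBS replicate 6, with Retnlg at 0.0691). In FLX versus PBS, 0 of 9 were higher, and only S100a8 had an adjusted p under 0.05, at -3.93 on the log2 scale (adjusted p = 0.0275). Among defining markers, Ly6g was listed at 0 in 5 Ctrl, 3 PBS and 6 FLX mice, and Ngp and Camp were listed at 0 in all Ctrl mice. Their part in the levels of Ccr1, Cxcr2 and Cxcl1 was not tested.

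For correlations between mice, a list of genes was scored as the mean log2(FPKM + 0.1) of its genes, and not as their sum. With the group means subtracted, the neutrophil list and Cxcr2 had Pearson's r = 0.750 over the 18 mice (permutation p = 0.0265, adjusted p = 0.0795 over 6 relations computed) and Spearman's rho = 0.620 (permutation p = 0.0234, adjusted p = 0.0702). Without PBS replicate 6 and FLX replicate 5, the mice farthest from the median of the neutrophil genes, r was 0.482 (permutation p = 0.101). Ccr1 gave r = 0.642 (permutation p = 0.0169, adjusted p = 0.0795) and rho = 0.612 (permutation p = 0.0167, adjusted p = 0.0702), and r = 0.491 (permutation p = 0.0991) without the same mice. Neither relation passed the adjustment, and both rested in part on those mice. Without PBS replicate 6 alone, r was 0.364 for Cxcr2 (permutation p = 0.275, adjusted p = 0.330) and 0.513 for Ccr1 (permutation p = 0.0434, adjusted p = 0.140). Cxcl1 was related neither to Cxcl2 (r = 0.299, permutation p = 0.245, adjusted p = 0.367, rho = 0.311 with permutation p = 0.242) nor to Ccl2 (r = 0.402, permutation p = 0.166, adjusted p = 0.332, rho = 0.416 with permutation p = 0.144) at the threshold. Without PBS replicates 1 and 3, the mice farthest from the median of Cxcl1, r was 0.312 and 0.506.

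**Figure D4:**
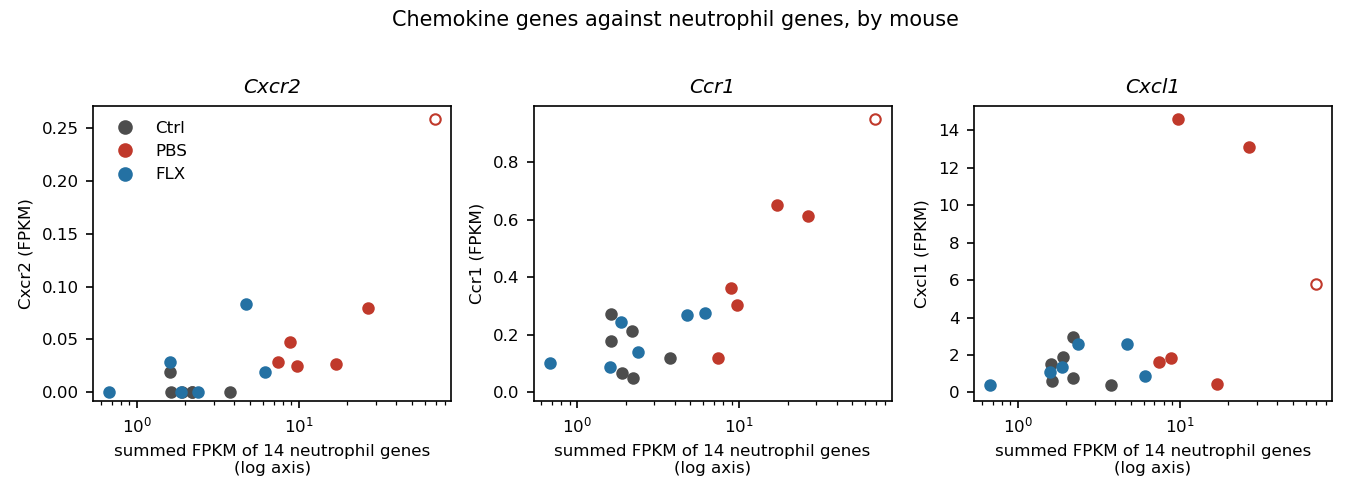
FPKM of Cxcr2, Ccr1 and Cxcl1 in each mouse against the summed FPKM of 14 neutrophil genes on a log axis, with PBS replicate 6 as an open circle. The 6 PBS mice lie to the right, at 7.44 to 69.3 summed FPKM, and Cxcr2 and Ccr1 are highest in PBS replicate 6 while Cxcl1 is highest in PBS replicates 1 and 4.

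Promoters of the genes were searched for the kappaB consensus, the site of NF-kappaB, a transcription factor through which many inflammatory chemokines are known to be induced. In RefSeq's table of GRCm38.p6, 43 of the 59 genes had an entry. On either strand of the 250 bases before the start, 10 of these 43 (23.3%) held a match, against 8.23% of 27025 genes and 7.25% of 32851 promoters. They were Ccl1, Ccl9, Ccl20, Ccr1, Ccr3, Ccr6, Cxcl1, Cxcl2, Cxcl3 and Cxcl10. Of the 5 that were also tested, 4 were higher in the PBS group, with a median log2 fold change of 1.43, and of the 27 tested genes without a match 13 were higher, with a median of -0.09. Ccl9, Ccr1, Cxcl1 and Cxcl2 were those on the higher side, and Cxcl10 gave a log2 fold change of -0.29 (adjusted p = 0.633). The median of 1.43 is the value of Cxcl2. Cxcl1 and Cxcl2 are neighbours with the same matched run, so that the 5 genes are not independent. The genes with and without a match were not compared by a test. Without PBS replicate 6 the log2 fold changes of Cxcl2 and Ccl9 were smaller, with Ccl9 at 0.50. The match is a description of the sequence and was not tested as a cause of the levels. The 160 bases before the start are shown for these 5 genes, 5′ to 3′ along the gene's strand, with the matched bases in capitals, since Cxcl1 and Ccr1 are the genes on which the comparisons turn.
Cxcl1, chr5:90891085-90891244, plus strand: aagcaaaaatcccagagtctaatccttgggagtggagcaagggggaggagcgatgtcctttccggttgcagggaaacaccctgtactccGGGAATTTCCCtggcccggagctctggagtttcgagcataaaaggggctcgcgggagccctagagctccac
Cxcl2, chr5:90903739-90903898, plus strand: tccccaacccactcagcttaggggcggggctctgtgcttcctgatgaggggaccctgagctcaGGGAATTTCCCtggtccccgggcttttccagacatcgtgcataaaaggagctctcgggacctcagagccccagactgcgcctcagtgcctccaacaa
Ccr1, chr9:123968693-123968852, minus strand: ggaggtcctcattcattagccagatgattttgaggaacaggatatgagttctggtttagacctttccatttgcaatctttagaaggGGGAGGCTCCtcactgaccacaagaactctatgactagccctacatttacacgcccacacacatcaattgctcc
Ccl9, chr11:83578637-83578796, minus strand: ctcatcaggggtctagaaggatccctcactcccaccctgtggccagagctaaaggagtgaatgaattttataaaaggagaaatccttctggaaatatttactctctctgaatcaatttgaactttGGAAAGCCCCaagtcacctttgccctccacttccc
Cxcl10, chr5:92348890-92349049, minus strand: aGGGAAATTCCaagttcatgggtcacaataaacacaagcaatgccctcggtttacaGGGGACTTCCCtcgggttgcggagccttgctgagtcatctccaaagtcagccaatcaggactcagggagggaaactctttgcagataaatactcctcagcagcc
In Cxcl1 and Cxcl2 the capitals are the same run of 11 bases, in which a match on each strand overlaps, 71 to 61 bases before the start of Cxcl1 and 97 to 87 before that of Cxcl2. In Ccr1 the match lies 74 to 65 bases before the start and in Ccl9 35 to 26 bases before it. Cxcl10 holds 2 runs, at 159 to 150 and 104 to 94 bases before the start.

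None of the inflammatory CC ligands, which include those of CCR1, passed the adjusted threshold. Of Ccl3, Ccl4, Ccl5, Ccl6 and Ccl9, all clustered between 83525778 and 83664683 on chromosome 11, 4 of 5 were higher in PBS versus Ctrl, with a median log2 fold change of 0.52 beside -0.0013 over all genes. Ccl9 was at 0.208, 0.647 and 0.874 FPKM in the Ctrl group, 0.547, 0.776 and 4.34 FPKM in the PBS group and 0.342, 0.733 and 2.40 FPKM in the FLX group. The PBS maximum was that of PBS replicate 6, and the log2 fold change of 1.23 (SE 0.52, adjusted p = 0.197) became 0.50 (adjusted p = 0.597) without it. Ccl6 likewise had 11.5 FPKM in PBS replicate 6 against 1.40 to 4.08 in the other PBS mice, and its log2 fold change of 0.80 (adjusted p = 0.258) became 0.26 without it. In FLX versus Ctrl, Ccl6 gave a log2 fold change of 0.86 (SE 0.39, adjusted p = 0.254), with 4 of 6 FLX mice above every Ctrl mouse.

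Ccl5, a ligand that T cells and NK cells make in quantity, went the other way from Ccl9 between the groups. Its levels were 1.25, 1.64 and 3.28 FPKM in the Ctrl group, 0.642, 1.31 and 1.75 FPKM in the PBS group and 1.48, 2.08 and 5.21 FPKM in the FLX group. In FLX versus PBS the log2 fold change came to 0.97 (SE 0.31, adjusted p = 0.160, permutation p = 0.00866), with 5 of 6 FLX mice above every PBS mouse. It was 1.05 (adjusted p = 0.164) without PBS replicate 6. In PBS versus Ctrl it was -0.58 (SE 0.30, adjusted p = 0.299). Ccl3, at medians of 0.444, 0.444 and 0.684 FPKM in the Ctrl, PBS and FLX groups, gave a log2 fold change of 0.42 (adjusted p = 0.765) in PBS versus Ctrl, or 0.67 without PBS replicate 6.

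Among the receptors of monocytes and macrophages, Ccr2 and Cx3cr1 were lower in the PBS group than in both other groups, without passing the adjusted threshold. These and Cxcr4 below are described for their values, which were seen first. Ccr2 (ENSMUSG00000049103, chromosome 9, 124101950 to 124113557), by which monocytes leave the bone marrow, was at 0.362, 0.597 and 0.937 FPKM in the Ctrl group, 0.235, 0.334 and 0.504 FPKM in the PBS group and 0.351, 0.565 and 0.913 FPKM in the FLX group. The fitted log2 fold change stood at -0.83 (SE 0.24, adjusted p = 0.0550, permutation p = 0.00866) in PBS versus Ctrl, with 4 of 6 PBS mice below every Ctrl mouse. It was 0.68 (SE 0.24, adjusted p = 0.215, permutation p = 0.00866) in FLX versus PBS and -0.15 (adjusted p = 0.790) in FLX versus Ctrl. PBS replicate 6, at 0.345 FPKM, lay between the lowest and highest of the others, and without it the value in PBS versus Ctrl was -0.82 (adjusted p = 0.0844). The adjusted p of Ccr2 in PBS versus Ctrl was under 0.05 in 7 of 31 settings, such as DESeq2 (0.0135), and the lowest and highest over all of them were 0.0135 and 0.120.

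Cx3cr1, the receptor of Cx3cl1 on resident macrophages and patrolling monocytes, was at 0.332, 0.707 and 1.56 FPKM in the Ctrl group, 0.124, 0.399 and 0.700 FPKM in the PBS group and 0.527, 0.761 and 1.49 FPKM in the FLX group. The lowest PBS value was that of PBS replicate 6. Fitted by edgeR, the log2 fold change came to -0.82 (SE 0.37, adjusted p = 0.219) in PBS versus Ctrl and 0.92 (SE 0.37, adjusted p = 0.293) in FLX versus PBS. Without PBS replicate 6 these were -0.63 and 0.72, and without Ctrl replicate 3, the highest Ctrl mouse, the value of Cx3cr1 in PBS versus Ctrl was -0.52 (adjusted p = 0.379). Monocyte genes were on the other side from Ccr2, and 9 of the 9 tested were higher in PBS versus Ctrl, with 0 under an adjusted p of 0.05 and a median log2 fold change of 0.37. Without PBS replicate 6, 7 of the 9 were higher, with a median of 0.26. The sum of the monocyte genes was 10.5, 12.6 and 20.2 FPKM in the Ctrl group, 14.1, 25.0 and 53.3 FPKM in the PBS group and 12.6, 24.3 and 188 FPKM in the FLX group. Of the 11 macrophage genes tested, 8 were higher in PBS versus Ctrl. With each list scored by its mean log2(FPKM + 0.1) and the group means subtracted, the monocyte list and Ccr2 had r = 0.124 (permutation p = 0.636, adjusted p = 0.763, rho = 0.0795 with permutation p = 0.764) over 18 mice, and the macrophage list and Cx3cr1 had r = 0.0664 (permutation p = 0.773, adjusted p = 0.773, rho = 0.271 with permutation p = 0.269). Without the pair of mice farthest from the median of each list, r was -0.262 and 0.220. The relation of the macrophage list and Cx3cr1 depended on single mice, with r = 0.437 (permutation p = 0.0468, adjusted p = 0.140) and rho = 0.488 (permutation p = 0.0490) without PBS replicate 6 alone.

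A cluster of receptor genes on chromosome 9 did not share a direction. Between 123806475 and 124113557 lie Cxcr6, Xcr1, Ccr1, Ccr1l1, Ccr3 and Ccr2. In PBS versus Ctrl, the log2 fold changes in that order were -0.55 for Cxcr6, -1.32 for Xcr1, 1.71 for Ccr1 and -0.83 for Ccr2, so that Ccr1 alone of these 4 was higher. Between FLX and PBS, Ccr1 alone was lower at -1.50, and the others were at 1.03 (Cxcr6), 0.99 (Xcr1) and 0.68 (Ccr2). Without PBS replicate 6, Cxcr6 was at -0.29 in PBS versus Ctrl. Of these genes, only Ccr1 in PBS versus Ctrl passed the adjusted threshold. Ccr3 and Ccr1l1 were found in 2 and 1 of the 18 mice.

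Ligands of the monocyte receptor CCR2 overlapped between the groups. Ccl2, Ccl7, Ccl8 and Ccl12 gave log2 fold changes of 0.50, 1.38, -0.13 and 0.19 in PBS versus Ctrl, with 3 of 4 higher and adjusted p of 0.363 to 0.949. Ccl7 reached 2.31 FPKM in a PBS mouse against a Ctrl maximum of 0.406, but its PBS median was 0.376 FPKM, beside 0.233 in the Ctrl group. The eosinophil ligands Ccl11 and Ccl24 were both higher in the PBS group without passing the threshold, with a median log2 fold change of 1.04.

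Ligands of dendritic cells and lymphocytes included the genes with the lowest values relative to Ctrl. Ccl22, a ligand of CCR4 made by dendritic cells and macrophages (ENSMUSG00000031779, chromosome 8, 94745590 to 94751699), was at 0.0528, 0.102 and 0.272 FPKM in the Ctrl group, 0, 0.0249 and 0.0761 FPKM in the PBS group and 0.0501, 0.117 and 0.302 FPKM in the FLX group. It had 0 to 56 counts per mouse, and 5 of 6 PBS mice were below every Ctrl mouse. On the log2 scale the difference was -2.07 (SE 0.78, adjusted p = 0.141, permutation p = 0.00866) in PBS versus Ctrl and 2.04 (SE 0.78, adjusted p = 0.267, permutation p = 0.0173) in FLX versus PBS. FLX versus Ctrl gave -0.03 (adjusted p = 0.990). Ccl17, the neighbouring ligand of the same receptor, was at 1.15 (SE 1.34) in PBS versus Ctrl, or 0.41 without PBS replicate 6, and Ccr4 itself was found in 4 of 18 mice.

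Ccl27b, annotated as a copy of the skin and epithelial chemokine Ccl27a, had 0 to 38 counts per mouse. It was at 0.185, 0.364 and 1.05 FPKM in the Ctrl group, 0, 0.0289 and 0.289 FPKM in the PBS group and 0, 0.453 and 0.942 FPKM in the FLX group. The fitted log2 fold change stood at -2.48 (SE 0.94, adjusted p = 0.142, permutation p = 0.00649) in PBS versus Ctrl and 2.44 (SE 0.94, adjusted p = 0.267) in FLX versus PBS. Ccl27a, at 4.33, 3.55 and 3.72 FPKM in the median Ctrl, PBS and FLX mouse, had values of -0.30 (adjusted p = 0.340) and -0.47 (SE 0.17, adjusted p = 0.154, permutation p = 0.0195) in PBS and FLX versus Ctrl. Without Ctrl replicate 2, the highest mouse for Ccl27a, the value in PBS versus Ctrl was -0.15 (adjusted p = 0.694). Ccl27a and Ccl27b are near-identical and the split of reads between them is uncertain. Ccr10, the receptor of CCL27 and CCL28, had medians of 0.0870, 0.142 and 0.107 FPKM in the Ctrl, PBS and FLX groups and a log2 fold change of 0.98 (SE 0.61, adjusted p = 0.395) in PBS versus Ctrl. Ccl21a, Ccl21b and Ccl19-ps3, among the 10 genes with the highest mean level, gave log2 fold changes of 0.10, 0.38 and 0.36 with adjusted p of 0.442 to 0.852.

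Xcl1, made by NK cells and T cells, and Xcr1, its receptor on cross-presenting dendritic cells, were both lower in the PBS group. Xcl1 was at 0.0989, 0.581 and 0.987 FPKM in the Ctrl group, 0, 0.0917 and 0.357 FPKM in the PBS group and 0, 0.520 and 0.757 FPKM in the FLX group. Its log2 difference was -2.08 (SE 0.85, adjusted p = 0.179) in PBS versus Ctrl and 1.61 (adjusted p = 0.471) in FLX versus PBS. Xcr1 was at 0.113, 0.137 and 0.289 FPKM in the Ctrl group and 0, 0.0432 and 0.163 FPKM in the PBS group, with 5 of 6 PBS mice below every Ctrl mouse and a log2 fold change of -1.32 (SE 0.63, adjusted p = 0.254, permutation p = 0.0281). Neither gene passed the adjusted threshold. Of the 8 dendritic cell genes tested, 0 were higher in PBS versus Ctrl, and Clec9a, a receptor of the same dendritic cells, had an adjusted p under 0.05, with a log2 fold change of -0.82 (SE 0.21, adjusted p = 0.0300). The dendritic cell genes summed to 4.95, 5.92 and 6.32 FPKM in the Ctrl group, 3.27, 4.22 and 6.33 FPKM in the PBS group and 4.51, 5.49 and 7.59 FPKM in the FLX group. The part of these cells in the levels of Xcr1 and Ccl22 was not tested.

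The interferon-induced ligands of CXCR3 were all lower in the PBS group without passing the adjusted threshold. Cxcl9, Cxcl10 and Cxcl11, side by side between 92321347 and 92365485 on chromosome 5, gave log2 fold changes of -0.82, -0.29 and -1.04 in PBS versus Ctrl, with 0 of 3 higher and adjusted p of 0.322, 0.633 and 0.371. Cxcl9 was at 0.627, 0.952 and 2.01 FPKM in the Ctrl group, 0.0911, 0.620 and 0.925 FPKM in the PBS group and 0.619, 0.983 and 2.95 FPKM in the FLX group. Its lowest value was that of PBS replicate 6, and in FLX versus PBS its log2 fold change of 1.01 (SE 0.45, adjusted p = 0.362) was 0.78 without this mouse. Without FLX replicate 5, the highest FLX mouse for Cxcl9, it was 0.58 (adjusted p = 0.664). Cxcr3, their receptor on T cells and NK cells, was at medians of 0.236, 0.295 and 0.513 FPKM in the Ctrl, PBS and FLX groups. Its log2 difference was 0.05 in PBS versus Ctrl, 0.83 (SE 0.39, adjusted p = 0.398, permutation p = 0.0260) in FLX versus PBS and 0.88 (SE 0.39, adjusted p = 0.242, permutation p = 0.0260) in FLX versus Ctrl. In FLX versus PBS, 5 of 6 FLX mice were above every PBS mouse. Of the T cell genes, 1 of 10 was higher in PBS versus Ctrl and 9 of 10 in FLX versus PBS, and of the NK cell genes 1 of 6 and 6 of 6, with 0 under an adjusted p of 0.05. The T cell sum was 4.07, 8.38 and 9.72 FPKM in the Ctrl group, 4.05, 5.25 and 8.19 FPKM in the PBS group and 5.45, 7.03 and 13.04 FPKM in the FLX group. Its part in the levels of Ccl5, Cxcr3 and Xcl1 was not tested.

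The ligands of highest level in the kidney had small differences between the groups, with 1 exception. Cxcl12, at 18.4 ± 2.28 FPKM in the Ctrl group, 16.4 ± 4.41 in the PBS group and 21.5 ± 3.76 in the FLX group (SD, n = 6 each), gave a log2 fold change of -0.17 (SE 0.16, adjusted p = 0.581) in PBS versus Ctrl and 0.31 (adjusted p = 0.444) in FLX versus PBS, or 0.19 in the latter without PBS replicate 6. Cx3cl1 had values of 0.12 and -0.01, and Cxcl16 values of 0.05 and -0.21, all with adjusted p above 0.5. Their standard errors were 0.11 to 0.12. Cxcl14, a ligand of epithelial cells, was that exception, at 10.1, 11.5 and 18.6 FPKM in the Ctrl group, 5.32, 9.07 and 12.1 FPKM in the PBS group and 10.7, 12.5 and 16.9 FPKM in the FLX group. All PBS mice but replicate 3 lay below every Ctrl mouse, and the lowest was PBS replicate 6. Fitted by edgeR, the log2 fold change came to -0.59 (SE 0.18, adjusted p = 0.0690, permutation p = 0.0130) in PBS versus Ctrl and 0.50 (SE 0.18, adjusted p = 0.227, permutation p = 0.00649) in FLX versus PBS. Without PBS replicate 6 these were -0.48 (adjusted p = 0.110) and 0.39 (adjusted p = 0.348), and without PBS replicate 3 the first was -0.69 (adjusted p = 0.0337).

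Cxcl13, the ligand that draws B cells into follicles, was higher in both defeated groups than in the Ctrl group without passing the adjusted threshold. It was at 0, 0.172 and 0.258 FPKM in the Ctrl group, 0.199, 0.553 and 2.66 FPKM in the PBS group and 0.0767, 0.302 and 2.07 FPKM in the FLX group, with 5 of 6 PBS mice and 3 of 6 FLX mice above every Ctrl mouse. PBS replicate 6 and FLX replicate 5 were far above the others of their groups. On the log2 scale the difference was 2.41 (SE 0.82, adjusted p = 0.103, permutation p = 0.00649) in PBS versus Ctrl, or 1.63 (adjusted p = 0.275) without PBS replicate 6, and 1.74 (SE 0.81, adjusted p = 0.269) in FLX versus Ctrl, or 0.65 (adjusted p = 0.742) without FLX replicate 5. In FLX versus PBS it was -0.67 (adjusted p = 0.805), or 0.11 without PBS replicate 6. Of the B cell genes, 1 of 7 was higher in PBS versus Ctrl. Cxcr5, its receptor on B cells, had 0 to 42 counts per mouse and a log2 fold change of -0.16 (SE 1.12).

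Cxcr4, the receptor of CXCL12, was at 0.847, 1.32 and 1.69 FPKM in the Ctrl group, 1.10, 1.76 and 2.81 FPKM in the PBS group and 1.48, 1.96 and 2.31 FPKM in the FLX group. The fitted log2 fold change stood at 0.55 (SE 0.24, adjusted p = 0.198) in PBS versus Ctrl and 0.47 (SE 0.24, adjusted p = 0.311) in FLX versus Ctrl. The permutation test gave p = 0.110 and p = 0.00649, the latter with an adjusted p over all genes of 0.0891 and 4 of 6 FLX mice above every Ctrl mouse. FLX and PBS mice overlapped, at -0.09 (adjusted p = 0.932). Ackr3, the atypical receptor that also binds and removes CXCL12, rose in FLX versus Ctrl, from 6.54 to 12.9 FPKM in the median mouse, with a log2 fold change of 0.81 (SE 0.17, adjusted p = 0.0259). In PBS versus Ctrl it was 0.37 (adjusted p = 0.240). Of the 10 tested genes that encode atypical receptors or chemokine-like ligands under other names, 8 were higher in PBS versus Ctrl and 0 had an adjusted p under 0.05.

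Of 18 tested inducers and feedback inhibitors of chemokine transcription, 12 were higher in PBS versus Ctrl, and Cebpb, Cebpd, Nfkbia and Stat3 rose. These 4 also had an adjusted p under 0.05 without PBS replicate 6. The log2 fold changes were 1.39 for Cebpb (adjusted p = 8.76e-05), 2.11 for Cebpd (adjusted p = 0.00238), 1.01 for Nfkbia, which encodes the inhibitor that NF-kappaB itself induces (adjusted p = 0.00336), and 0.97 for Stat3 (adjusted p = 0.0254, or 0.62 with an adjusted p of 0.0260 without PBS replicate 6). Cebpb and Cebpd fell in FLX versus PBS, with log2 fold changes of -0.91 (adjusted p = 0.0107) and -1.68 (adjusted p = 0.0282), and Nfkbia was at -0.66 (adjusted p = 0.0874). Of the 5 cytokine genes tested in this list, none passed the adjusted threshold in PBS versus Ctrl. Il1a was at 0.80 (adjusted p = 0.648), Il1b at -1.03 (adjusted p = 0.108), Tnf at -0.68 (adjusted p = 0.622), Il6 at -0.76 (adjusted p = 0.749) and Ifng at -1.44 (adjusted p = 0.549). Of 23 tested genes of signalling below chemokine receptors, 14 were higher in PBS versus Ctrl, Gnb1, a G protein subunit, rose by 0.24 on the log2 scale (adjusted p = 0.0315), and Plcb2, a phospholipase of leukocytes, fell by 0.72 on the log2 scale (adjusted p = 0.0433, or 0.0796 without PBS replicate 6). In FLX versus Ctrl, Grk2, a kinase that desensitizes the receptors, rose by 0.36 on the log2 scale (adjusted p = 0.0154). Genes of injured tubules were higher as well, 6 of 6 in PBS versus Ctrl, with Lcn2, Spp1 and Cp under an adjusted p of 0.05 (Lcn2 at 0.192 without PBS replicate 6). Fat genes, 6 of 6 higher in PBS versus Ctrl and 0 with an adjusted p under 0.05, ranged from 11.8 to 1179.7 summed FPKM in the PBS group. Endothelial genes (5 of 7 higher), lymphoid stroma genes (2 of 3) and genes of eosinophils and mast cells (1 of 2) had 0 with an adjusted p under 0.05. The part of all these in the levels of the chemokine genes was not tested.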

How the data were processed

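Poly(A) RNA of right kidneys was sequenced in read pairs, from libraries that mark strand. In the study's methods, reads were cleaned with fastp, aligned to GRCm38 with HISAT-3N and assembled with StringTie. The submitters' processing notes name cutadapt 1.9, HISAT2 2.0.4, UMI-tools, StringTie 1.3.4d, DESeq2 and edgeR. The authors deposited FPKM values and estimated counts of 32675 genes for each of 18 mice. Which tool made the estimated counts was not given in the sources used here. All of these counts are whole, with an excess at 4 (720 genes in the median mouse, beside 484.5 at 3 and 268 at 5), for which the sources give no reason.

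Genes passing edgeR's filterByExpr (19946) were compared with edgeR 4.0.16 (TMM scaling, quasi-likelihood test, 1 model over the 3 groups) in R 4.3.3, and with limma 3.58.1 and DESeq2 1.42.0 as alternatives. The exact permutation test used log2(FPKM + 0.1), and its p values were adjusted over all genes tested, not over the named genes as first planned. Correlations used 100000 permutations within groups and adjustment over 6 relations. The scripts were tested on simulated data.

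Genes were named where the adjusted p was under 0.05 (with all mice or without PBS replicate 6), where the study's threshold was met, where groups did not overlap, where the mean level was among the 10 highest, where the study shows them among inflammation genes, or as receptor or ligand of a gene named for a test, the threshold or groups that did not overlap. Ccr2, Cx3cr1, Cxcr4 and the other genes were named after their values were seen. The alternatives were another scaling, tool, filter, pseudocount, set of mice and a replicate block. Promoters were read from RefSeq's table of GRCm38.p6. The genes, the lists and this rule were chosen with earlier results of these data known. Gene positions are those of the deposited table, and 52 of the 59 have the same start and end in GENCODE M21. The results of 1 gene are not reported here, though it is counted among the 59 genes and the 46 tested.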

Additional observations from a re-analysis of the deposited data

Results flagged for a closer look

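In sets of 6 values, the highest mouse was farther from the next than Dixon's 95% limit in 18 of 83 sets examined. Chance passes this limit in about 1 in 20 sets of normally distributed values, a rate that does not carry over to these skewed FPKM values, some of them mostly 0, of genes chosen partly for their values. PBS replicate 6 was the mouse in 5 of them, with 11.5 FPKM of Ccl6 (next highest PBS mouse 4.08), 4.34 FPKM of Ccl9 (next 1.44), 2.66 FPKM of Cxcl13 (next 0.680), 0.641 FPKM of Cxcl2 (next 0.227) and 0.258 FPKM of Cxcr2 (next 0.0793). FLX replicate 4 was the mouse in 4 of them, with 11.6 FPKM of Ccl21a (next 5.97), 3.997 FPKM of Ccl21b (next 2.20), 0.370 FPKM of Cxcl5 (next 0.0978) and 0.0839 FPKM of Cxcr2 (next 0.0285). It is 1 of the FLX mice with low total counts.

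The other values of this kind were 2.07 FPKM of Cxcl13 in FLX replicate 5 (next 0.382), 9.48 FPKM of Ccl19-ps3 in PBS replicate 3 (next 3.98), 0.289 FPKM of Ccl27b in PBS replicate 2 (next 0.0961) and 0.136 FPKM of Cxcr5 in PBS replicate 4 (next 0.0396). Ctrl replicate 1 had 0.289 FPKM of Xcr1 (next 0.141) and Ctrl replicate 2 had 6.77 FPKM of Ccl27a (next 4.66). Cxcl3 at 0.0205 FPKM in Ctrl replicate 1, Ccr4 at 0.0270 FPKM in Ctrl replicate 2 and Cxcr2 at 0.0195 FPKM in Ctrl replicate 3 stood apart because the other Ctrl mice were listed at 0.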

How the results depend on the processing

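For 39 pairs of gene and comparison, 1169 values were computed under alternatives. Of these, 1114 kept their direction and their side of the adjusted threshold, 18 (all of Ccr1 in PBS versus Ctrl) lost it, 20 gained it and 17 turned direction. The cause was not tested. The turned values were all in FLX versus Ctrl, close to 0 for Cxcl1 (-0.00233 with upper-quartile scaling, -0.0626 with the replicate block, and -0.23 to 0.41 leaving out each mouse) and for Ccl22 (0.0108 with limma on log2(FPKM + 0.1), also without PBS replicate 6, 0.00547 with a pseudocount of 1, and -0.36 to 0.28 leaving out each mouse), and -0.42 for Ccr1 and -2.87 for Cxcl2 with FLX replicates 1 and 2 only.

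In PBS versus Ctrl, the 1 gene with an adjusted p under 0.05 became 2 with upper-quartile scaling (4.35%, against 4.28% of all genes). With DESeq2 the count was 5 (Ccr1, Ccr2, Cxcl1, Cxcl13 and Cxcl14), where the share of all genes also rose, from 4.28% to 8.17%. DESeq2 without PBS replicate 6 gave 3 (7.03% of all genes). The count was 0 with no filter on low counts (1.83% of all genes), limma with a pseudocount of 1 (3.93%) or 0.01 (3.88%) and the replicate block (2.7%). The 2 groups alone (1.8%), FLX replicates 1 and 2 only (2.21%) and limma without PBS replicate 6 (3.8%) gave 0 as well. A single gene of the 46 is 2.17%. Leaving out each mouse gave a count of 0 to 2 (2.13% to 8.52% of all genes). It was 0 when Ctrl replicate 1, 2, 4 or 5 was left out, when PBS replicate 1 or 6 was, and when FLX replicate 1 was. It was 2 when replicate 3 of any group or FLX replicate 5 was left out. The genes counted were not always the same. Without PBS replicate 3 they were Cxcl1 and Cxcl14, and Ccr1 had an adjusted p of 0.0610. Where the count stayed at 1, the gene was Ccr2 and not Ccr1 without Ctrl replicate 6 (adjusted p = 0.0335) or PBS replicate 4 (0.0311). With limma and a pseudocount of 0.1 it was Ccl27b (adjusted p = 0.0497), with Ccr1 at 0.0553. In FLX versus PBS, the 0 genes became 1 with DESeq2, with all mice (2.64% of all genes) or without PBS replicate 6 (2.46%), and stayed at 0 leaving out each mouse (0.163% to 0.949%). In FLX versus Ctrl, the 0 genes became 2 with DESeq2 without PBS replicate 6 (8.12% of all genes) and 0 to 1 leaving out each mouse, with 1 without Ctrl replicate 3 (10.4% of all genes).

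At the study's threshold, the 7 genes of PBS versus Ctrl became 1 with limma and a pseudocount of 1 (2.17%, against 0.602% of all genes). They became 3 with limma without PBS replicate 6 (6.52%, against 1.88%), so that the share of all genes fell as well. Leaving out each mouse gave 5 to 8 (10.6% to 17.4%, against 3.28% to 4.61% of all genes). The 5 genes of FLX versus PBS became 9 with no filter, of 59 tested and not 46 (15.3%, against 6.41% of all genes), or with limma and a pseudocount of 0.01 (19.6%, against 3.10%). They became 2 with limma and a pseudocount of 0.1, with or without PBS replicate 6 (4.35%, against 1.29% and 1.11%), and 1 with a pseudocount of 1 (2.17%, against 0.366%). Leaving out each mouse gave 4 to 10 (8.7% to 21.3%, against 1.9% to 2.91% of all genes), with 8 without FLX replicate 2 or PBS replicate 2 and 10 without PBS replicate 3. The 1 gene of FLX versus Ctrl became 2 with DESeq2, with or without PBS replicate 6 (4.35%, against 2.44% and 2.59% of all genes), and 6 with no filter (10.2% of 59, against 6.53%). The count was 0 with limma and a pseudocount of 0.1 (against 1.12%) or 1 (0.17%), with the replicate block (1.96%) or with the 2 groups alone (2.19%). Leaving out each mouse gave a count of 0 to 3 (up to 6.38%, against 1.82% to 2.45% of all genes). It was 0 without Ctrl replicate 1, 2 or 3, FLX replicate 5 or PBS replicate 4, 2 without Ctrl replicate 4 or FLX replicate 2, and 3 without FLX replicate 1 or 6.

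The labels do not say whether replicate numbers pair the mice. Same-numbered mice of different groups deviated with correlations of -0.246 to 0.288, which cannot settle this, and the replicate block is given only as above. On log2(FPKM + 1), the neutrophil genes passed the adjusted threshold with Cxcr2 (r = 0.869, permutation p adjusted to 0.0438) and with Ccr1 (r = 0.805, adjusted to 0.0169). The adjusted p of the same relations was 0.330 and 0.140 without PBS replicate 6, with r = 0.364 and 0.513, and 0.241 and 0.254 without the 4 mice of low total count. Without those 4 mice, the monocyte genes with Ccr2 gave r = -0.188 and the macrophage genes with Cx3cr1 r = -0.440, where leaving out PBS replicate 6 gave r = 0.437. Genes with few counts, Cxcr2, Ccl22 and Ccl27b among them, are limited by depth.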
